A study of Saccharomyces cerevisiae with 24 samples.

Results

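The genes described here encode the enzymes that attach sugar chains to proteins of the yeast secretory pathway and extend them. They were taken by name from the count table, as every gene called PMT, MNN, MNT, KTR, OST or ALG followed by a number. This gave 42 of the 7126 genes counted, and all 42 passed the filter on low counts that left 6253 genes for testing. By role they formed 4 classes: 12 ALG genes of N-glycan assembly in the endoplasmic reticulum (ER), 6 OST genes of the oligosaccharyltransferase, 7 PMT genes of O-mannosyl transfer, and 17 Golgi genes with 7 KTR, 7 MNN and 3 MNT members. RNA came from the budding yeast Saccharomyces cerevisiae in the BY4741 background, a haploid MATa laboratory strain, in 8 groups of 3 libraries. The cnb1 strain carried cnb1delta::KanMx, in which a drug-resistance cassette replaces the gene for the regulatory subunit of calcineurin, a phosphatase switched on by calcium. It was sampled before CaCl2 was added (0 h) and after 12, 48 and 72 h of growth in 200 mM CaCl2. The WT strain kept CNB1 and was sampled at the same 4 times. All groups shared the alleles his3delta1, ura3delta0, leu2delta0 and lys2delta0, and all carried HYG-TEFp-GFP(Y66F), a hygromycin-resistance and fluorescent-protein construct on chromosome VI. The cells grew in a synthetic medium whose nitrogen source was ammonium chloride, and were diluted every 12 h so that growth stayed logarithmic. No group without CaCl2 was sampled at the later times, so CaCl2 and time in culture cannot be told apart. The submitters describe 3 time courses a strain. The p-values measure the spread between libraries of a group, estimated together over all 8 groups. A test at 12 h thus also takes in the spread at 48 h and 72 h.

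As background, N-glycans are built on the lipid dolichol in the ER membrane by the ALG enzymes, which add its sugars in a fixed order, and the oligosaccharyltransferase moves the finished chain onto asparagine residues of new proteins. O-glycans begin in the ER, where Pmt proteins transfer mannose from dolichyl phosphate mannose to serine and threonine, and grow in the Golgi. Golgi mannosyltransferases then lengthen and branch both kinds of chain, and the mannoproteins that result form the outer layer of the cell wall. In yeast, calcineurin acts on gene expression largely through the transcription factor Crz1, which it dephosphorylates.

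The libraries matched their labels. CNB1 had 0 to 23 counts in cnb1 libraries, against 996 to 3320 in WT libraries, URA3 and LEU2 had 0 counts in all 24, and LYS2 had 1 count in a single library. Totals ran from 18843220 to 22250806 counts a library. All 6 markers of MATa cells were detected, with a summed level of 552 to 2670 CPM (counts scaled to a common library size) in cnb1 libraries and 248 to 3210 CPM in WT libraries, and all 6 were called lower at every later time in both strains; at 72 h all 6 were higher in cnb1 than in WT cells. The 4 markers of MATalpha cells summed to 23.2 to 49.2 CPM. The replicate 1 libraries of 48 h and 72 h stood apart in both strains, since their deviations from the group means correlated at 0.569 to 0.695 with each other. Their sum of 20 general stress markers was 1770 and 2380 CPM in cnb1 cells at 48 h and 72 h, against 946 to 1300 CPM in replicates 2 and 3. In WT cells it was 3390 and 2480 CPM, against 615 to 1590 CPM in replicates 2 and 3. Its part in the results was not tested beyond the values without these libraries. In cnb1 cells at 0 h and 12 h, replicates 1 and 3 were the most alike pairs of all, at 5.39 and 4.61 chi-square units per degree of freedom against 15.8 to 324 for the other pairs.

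Glycosylation genes moved in both directions, and their share of calls was near that of all genes. Calls used edgeR's quasi-likelihood test with Benjamini-Hochberg adjustment over the 6253 genes and a threshold of 0.05. Of the 42 genes, 33 (78.6%) were called in at least 1 of 13 comparisons, against 82.4% of all genes tested. In cnb1 cells after 12 h, 4 rose (22.1% of all genes rose) and 11 fell (20.2% of all genes fell; 42.4% called either way). After 48 h, 7 rose (28.9%) and 14 fell (26.4%; 55.3% either way), and after 72 h, 6 rose (31.6%) and 18 fell (28.0%; 59.7% either way). Among WT cells after 12 h, 9 rose (24.6%) and 7 fell (22.4%; 47.1% either way). After 48 h, 9 rose (33.7%) and 17 fell (30.0%; 63.7% either way), and after 72 h, 9 rose (34.7%) and 15 fell (29.8%; 64.5% either way). With either direction counted, 35.7%, 50% and 57.1% of the 42 genes were called in cnb1 cells and 38.1%, 61.9% and 57.1% in WT cells at 12, 48 and 72 h. The 3 comparisons of a strain share their 0 h libraries. The median change of the 42 genes at 72 h was a log2 value of -0.18 in cnb1 cells and -0.15 in WT cells, beside medians of 0.05 and 0.08 over all genes. Single libraries carried part of these counts. The 11 genes lower in cnb1 cells at 12 h became 4 to 7 whichever of the 6 libraries was left out, the 7 lower in WT cells at 12 h became 3 to 4 without replicate 2 or 3 of 0 h or replicate 1 or 2 of 12 h, and the 17 lower in WT cells at 48 h became 11 without replicate 1 of 48 h. Same-numbered WT libraries of 12 h and 0 h deviated together. With replicate numbers as a block, ALG5 (0.31, edgeR adjusted p = 0.0307), MNT2 (0.22, edgeR adjusted p = 0.0303) and ALG7 (-0.55, edgeR adjusted p = 0.0191) were called as well. The 4 higher in cnb1 cells at 12 h became 2 without replicate 3 of 0 h or replicate 1 of 12 h, and the 7 higher at 48 h became 4 without replicate 3 of 48 h.

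**Figure D1:**
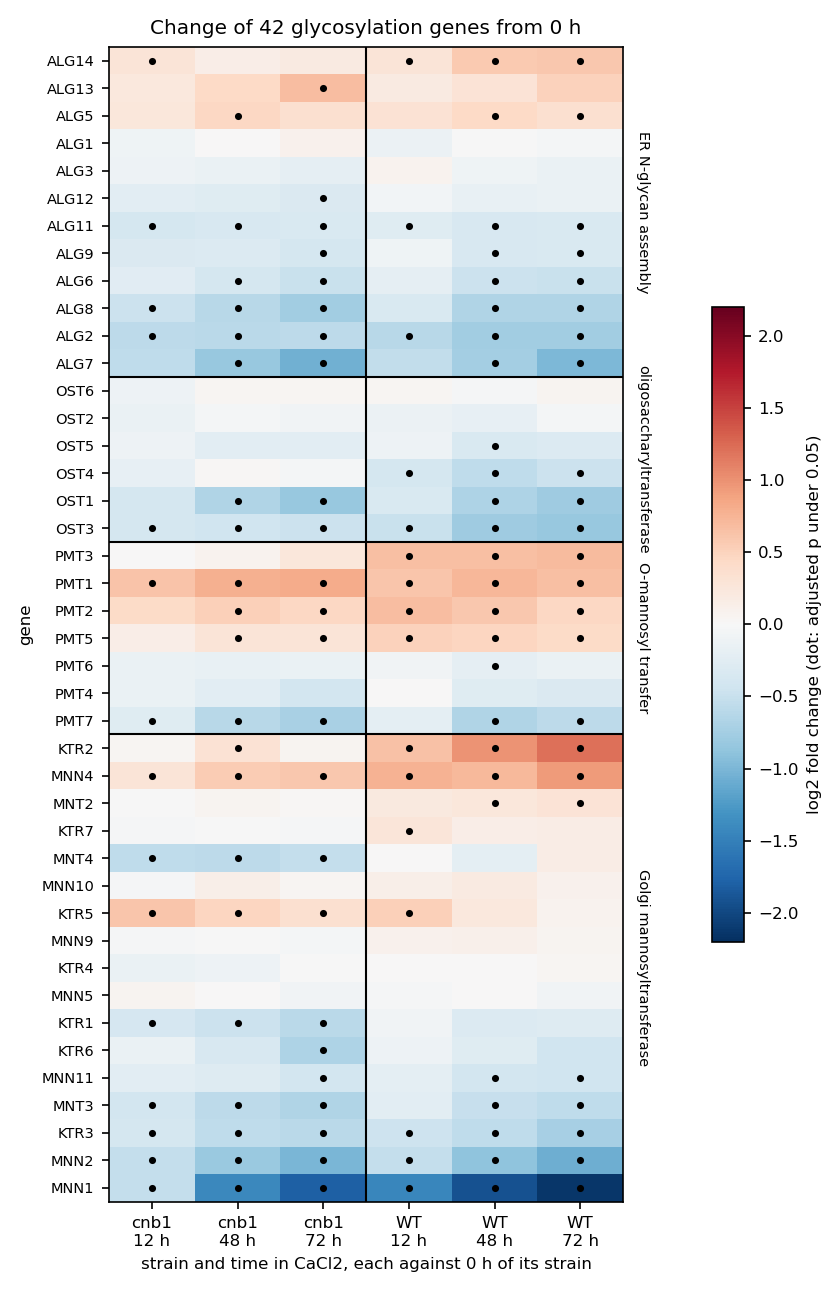
Log2 fold change of each of the 42 genes (rows, by class) from 0 h of its strain, for cnb1 cells at 12, 48 and 72 h and then WT cells at 12, 48 and 72 h (columns); a dot marks an adjusted p under 0.05. KTR2 is the reddest row in WT at 72 h (1.22) and pale in cnb1 cells (0.06), and MNN1 is the bluest row in both strains.

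The classes differed in the sign of their medians. Of all genes at 72 h, 31.6% rose and 28% fell in cnb1 cells, and 34.7% rose and 29.8% fell in WT cells. At 72 h the PMT genes had a median log2 change of 0.25 in cnb1 cells (3 rose, 1 fell) and 0.42 in WT cells (4 rose, 1 fell). The ALG genes had medians of -0.33 (1 rose, 7 fell) and -0.24 (2 rose, 6 fell). The OST genes had medians of -0.16 (2 fell) and -0.39 (3 fell), with none higher, and the Golgi genes of -0.07 (2 rose, 8 fell) and 0.05 (3 rose, 5 fell). These values are relative to the bulk of genes. With libraries scaled to total counts, the median of all genes itself moved by 0.22, 0.29 and 0.34 in cnb1 cells and by 0.18, 0.38 and 0.38 in WT cells at 12, 48 and 72 h. On that scale the 72 h medians were 0.55 and 0.72 for PMT genes, -0.04 and 0.06 for ALG genes, 0.13 and -0.09 for OST genes and 0.22 and 0.35 for Golgi genes in cnb1 and WT cells, so the sign turned for ALG genes in WT cells and for OST and Golgi genes in cnb1 cells. In these bulk samples, less RNA per cell and fewer cells with the RNA cannot be told apart.

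**Figure D2:**
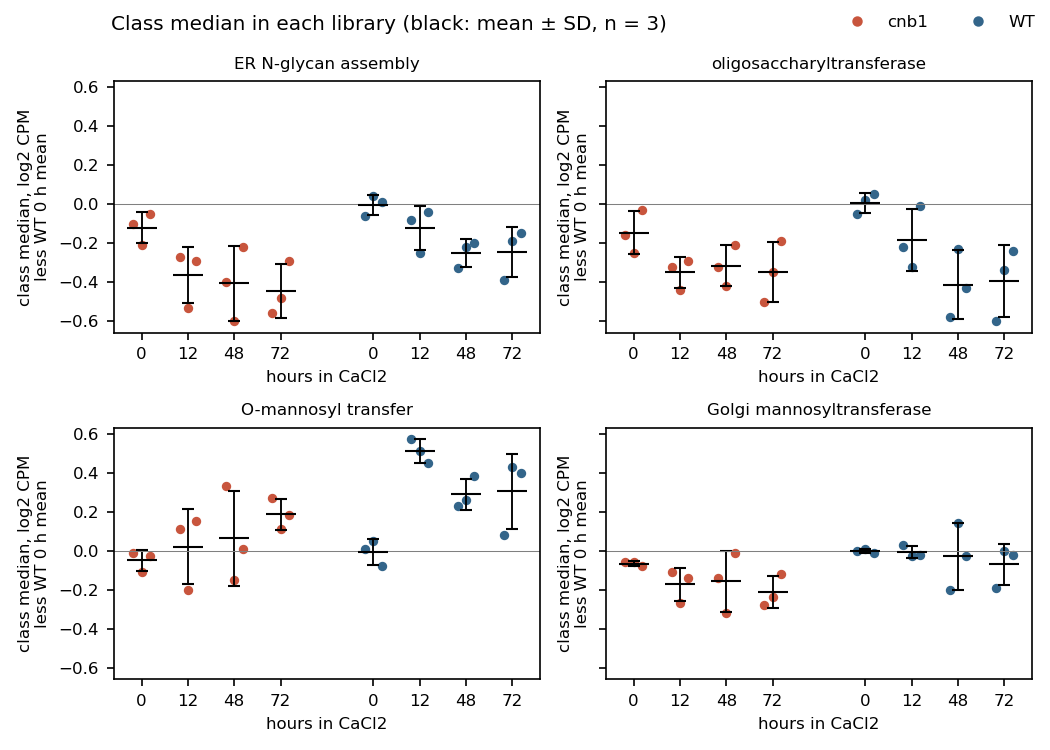
Median of each class in each library, as log2 CPM less the gene's WT 0 h mean, against hours in CaCl2; points are libraries, black bars the mean ± SD of 3, cnb1 left of WT. O-mannosyl genes lie above 0 in every WT library after 0 h (0.08 to 0.57), while ER N-glycan genes lie below 0 in every library after 0 h.

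The level of these genes, as deposited TPM (transcript abundance scaled for gene length and library size), spanned a wide range within a class. At 72 h the OST genes had the highest median, 182.8 TPM in cnb1 cells and 191.5 TPM in WT cells, with OST4 as their highest member and OST6 as their lowest. OST4 is only 111 bases long, so its rank by TPM rests on the scaling for length. By CPM it was the lowest OST gene at 72 h, at 47.6 CPM in cnb1 cells and 42.1 CPM in WT cells. The PMT genes had medians of 40.2 and 42.9 TPM, from PMT7 at 15.7 and 16.7 TPM to PMT2 at 201.5 and 188.7 TPM. The Golgi genes ran from MNN4, at 6.80 TPM in cnb1 cells and 8.28 TPM in WT cells, to KTR1, at 202.4 and 261.1 TPM. The ALG genes ran from ALG13 (20.6 and 18.1 TPM) to ALG9 (98.8 and 107.7 TPM). The enzyme genes at the ends of each class were thus the same in both strains at 72 h.

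Among the O-mannosyl genes, PMT1, PMT2, PMT3 and PMT5 rose in WT cells, PMT7 fell in both strains, PMT4 was not called at any time and PMT6 was called once, lower in WT cells at 48 h (-0.20, or 0.12 with total counts). Pmt1 and Pmt2 form the main heterodimeric mannosyltransferase of the ER, Pmt3 and Pmt5 are their relatives that can pair with each other, and Pmt4 acts as a homodimer. PMT1 (YDL095W, chromosome IV, 287059 to 289512, R64) had 416.7, 365.1 and 453.8 CPM at 72 h, against 251.4, 229.5 and 224.3 CPM at 0 h, in cnb1 cells. The WT libraries held 351.4, 394.8 and 398.8 CPM at 72 h, against 243.3, 246.2 and 235.8 CPM at 0 h. The 72 h and 0 h libraries did not overlap in either strain. The log2 change was 0.81 ± 0.11 (SE) in cnb1 cells (edgeR adjusted p = 7.51e-06) and 0.66 ± 0.11 in WT cells (edgeR adjusted p = 4.35e-05), n = 3 libraries a group, and PMT1 was called higher at 12 h and 48 h in both strains as well. With MNN4 it was 1 of the 2 genes called higher at all 3 times in both strains.

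PMT2 (YAL023C) is the partner of PMT1, and its rise was less steady. Its 72 h libraries held 445.2, 456.2 and 632.0 CPM in cnb1 cells, against 403.4, 351.2 and 361.6 CPM at 0 h. The corresponding WT libraries held 388.5, 575.0 and 561.6 CPM, against 399.5, 377.8 and 332.4 CPM at 0 h. The replicate 1 library of WT at 72 h thus lay within the 0 h range. The log2 change was 0.46 ± 0.19 in cnb1 cells (edgeR adjusted p = 0.0465) and 0.46 ± 0.19 in WT cells (edgeR adjusted p = 0.0430), and the values were 0.42 in both with size factors by the median of ratios and by DESeq2, where neither was called. Without replicate 3 of 72 h the cnb1 value was 0.28 (edgeR adjusted p = 0.247); the call there also ended without any of the 0 h replicates (0.42 to 0.52), and in WT cells without replicate 2 or 3 of 0 h or of 72 h (0.36 to 0.47). At 12 h the WT log2 change was 0.68 ± 0.19 and that of cnb1 cells, not called, 0.42 ± 0.19.

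PMT3 (YOR321W) and PMT5 (YDL093W), which encode the relatives of Pmt2 and Pmt1, rose in WT cells at every time. PMT3 had 70.7, 61.5 and 68.0 CPM at 0 h, 70.4, 56.7 and 72.9 CPM at 12 h, 86.9, 58.7 and 65.7 CPM at 48 h and 94.3, 70.3 and 73.9 CPM at 72 h in cnb1 cells. The WT libraries held 64.8, 69.8 and 61.7 CPM at 0 h, 105.3, 93.0 and 113.6 CPM at 12 h, 145.8, 78.4 and 85.0 CPM at 48 h and 122.5, 92.9 and 100.3 CPM at 72 h. Every WT library after 0 h was above all 3 WT libraries of 0 h, whereas the cnb1 libraries overlapped those of 0 h at every time, and replicate 1 was the highest of its group at 48 h and 72 h in both strains. The log2 changes at 12, 48 and 72 h were 0.00, 0.08 and 0.25 in cnb1 cells, none called (the last 0.55 and called with total counts), and 0.67, 0.66 and 0.69 in WT cells, all called; without replicate 1 of 48 h the WT value there was 0.32 (edgeR adjusted p = 0.0867). The test of the difference between these changes gave -0.67 ± 0.27 at 12 h (edgeR adjusted p = 0.253), -0.58 ± 0.27 at 48 h (edgeR adjusted p = 0.523) and -0.43 ± 0.27 at 72 h (edgeR adjusted p = 0.563). PMT5 had 105.3, 95.2 and 95.0 CPM at 72 h in cnb1 cells, against 81.4, 77.3 and 82.7 CPM at 0 h, and 113.4, 112.4 and 110.3 CPM in WT cells, against 84.1, 91.1 and 76.2 CPM at 0 h. It rose by a log2 value of 0.29 ± 0.08 at 72 h in cnb1 cells (edgeR adjusted p = 0.00386) and 0.42 ± 0.08 in WT cells (edgeR adjusted p = 1.36e-04), with no overlap with 0 h in either. PMT1 and PMT5 lie next to each other on chromosome IV in the same orientation, and PMT1 had 3.81 ± 0.47 times the TPM of PMT5 in cnb1 cells at 72 h (SD, n = 3), against 2.66 ± 0.18 at 0 h, and 3.10 ± 0.25 times in WT cells at 72 h, against 2.64 ± 0.18 at 0 h.

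PMT7 (YDR307W), a relative of the family whose enzyme activity is less studied, fell at 72 h to 32.6, 36.6 and 34.2 CPM in cnb1 cells, against 57.4, 50.9 and 61.2 CPM at 0 h. The WT libraries fell to 36.3, 43.1 and 37.7 CPM, against 54.7, 60.1 and 58.5 CPM. All 6 libraries of 72 h were below all 6 of 0 h. On the log2 scale the change was -0.71 ± 0.10 in cnb1 cells (edgeR adjusted p = 9.27e-06) and -0.57 ± 0.10 in WT cells (edgeR adjusted p = 6.99e-05). PMT4, whose enzyme modifies membrane-attached proteins, had a log2 change of -0.41 ± 0.18 and -0.31 ± 0.18 at 72 h in cnb1 and WT cells, not called, though the cnb1 value was called with size factors by the median of ratios (-0.45) and without replicate 2 of 0 h (-0.48) or replicate 3 of 72 h (-0.55). PMT6 had a change of -0.15 ± 0.08 in both, not called, and -0.20 in WT cells with those size factors, called.

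Among the Golgi genes, KTR2 and MNN4 rose and MNN1 and MNN2 fell by the most in WT cells. Promoters are shown for MNN1, MNT2 and MNT4, members of the same gene family that each hold a match to the letters below. MNT4 differed between the strains at 12, 48 and 72 h. The promoters run from 250 bases before to 50 bases after the start codon, read from RefSeq's R64 assembly in the gene's direction. They are MNN1 (plus strand, chrV:153270-153569), MNT2 (minus strand, chrVII:14108-14407) and MNT4 (plus strand, chrXIV:736553-736852). Capitals mark matches on either strand to GNGGCTC or GNGGCGC, the first letters of the Crz1 motif, where N is any base.
MNN1: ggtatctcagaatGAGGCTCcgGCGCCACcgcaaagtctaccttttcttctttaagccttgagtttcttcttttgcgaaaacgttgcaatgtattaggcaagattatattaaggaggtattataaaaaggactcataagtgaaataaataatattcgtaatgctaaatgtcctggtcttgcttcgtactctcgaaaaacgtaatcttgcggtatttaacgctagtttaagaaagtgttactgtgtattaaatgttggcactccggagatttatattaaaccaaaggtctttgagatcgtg
MNT2: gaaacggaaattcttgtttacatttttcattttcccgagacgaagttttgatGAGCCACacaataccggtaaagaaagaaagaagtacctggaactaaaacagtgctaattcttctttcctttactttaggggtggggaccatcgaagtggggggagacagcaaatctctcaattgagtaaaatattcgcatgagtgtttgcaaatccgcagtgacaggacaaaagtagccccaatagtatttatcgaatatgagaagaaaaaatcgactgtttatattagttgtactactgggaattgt
MNT4: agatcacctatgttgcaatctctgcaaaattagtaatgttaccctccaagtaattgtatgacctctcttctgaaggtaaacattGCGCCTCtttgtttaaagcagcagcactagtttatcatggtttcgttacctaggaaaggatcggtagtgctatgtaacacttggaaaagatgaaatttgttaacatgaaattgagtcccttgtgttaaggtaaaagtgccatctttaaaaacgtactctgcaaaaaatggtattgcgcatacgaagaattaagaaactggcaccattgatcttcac
MNN1 held GNGGCTC at -237 to -231 on its own strand and GNGGCGC at -228 to -222 on the other, with positions counted from the start codon. MNT2 held GNGGCTC at -198 to -192 and MNT4 GNGGCGC at -166 to -160, both on the other strand. GNGGCTC occurs in 3.94% and GNGGCGC in 3.60% of 6020 promoters of this length, and each in 3 of the 42 genes: OST6 and KTR6 are the others. KTR2 and ALG14, which were also called between the strains, held neither, and nor did MNT3 of the same family as MNN1. The matches do not overlap each other. Only the first letters of the Crz1 motif were searched. The base after them was C in both MNN1 matches and A in those of MNT2 and MNT4. Other letters were searched on both strands and found in none of the 3 windows shown: CAGCGTG, which 1.16% of promoters hold, then TACGTG with 7.72%, CGCGAAA with 3.59%, ACGCGT with 3.06%, and TGACTC with 7.96%. A match is a description of the letters and does not show binding.

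KTR2 (YKR061W), which encodes a mannosyltransferase of N-linked chains in the Golgi, rose in WT cells at each time and in cnb1 cells was called at 48 h alone. In cnb1 cells it had 31.5, 40.6 and 32.1 CPM at 0 h, 33.8, 39.8 and 34.1 CPM at 12 h, 43.3, 38.3 and 48.6 CPM at 48 h and 34.7, 36.2 and 37.8 CPM at 72 h. The WT levels of KTR2 were 33.4, 32.9 and 37.6 CPM at 0 h, 57.8, 52.5 and 53.1 CPM at 12 h, 68.3, 67.2 and 70.1 CPM at 48 h and 71.4, 81.6 and 89.4 CPM at 72 h. Each WT library after 0 h was above all 12 cnb1 libraries, and at 0 h the strains overlapped. The WT log2 changes were 0.65 ± 0.11, 0.98 ± 0.11 and 1.22 ± 0.11 at 12, 48 and 72 h, the last a 2.33-fold rise (edgeR adjusted p = 3.34e-08). In cnb1 cells they were 0.05, 0.32 and 0.06, of which the 48 h value was called (edgeR adjusted p = 0.0182), and that call ended without replicate 1 or 3 of 0 h or replicate 3 of 48 h (0.23 to 0.27). With total counts the cnb1 value at 72 h was 0.34 and called. The difference between the changes was -1.16 ± 0.15 at 72 h (edgeR adjusted p = 6.63e-04) and was called in every alternative tried. At 48 h it was -0.66 ± 0.15 and not called (edgeR adjusted p = 0.110), while DESeq2 gave -0.68 with an adjusted p of 0.0116.

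**Figure D3:**
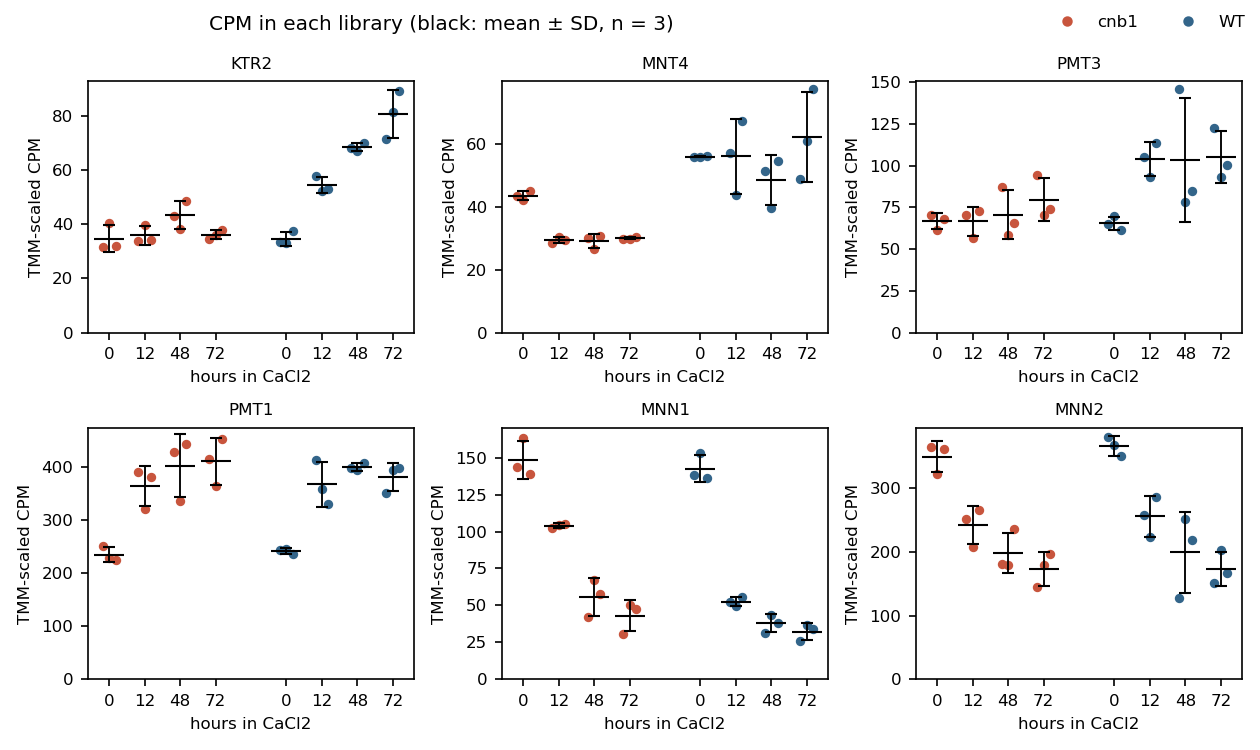
TMM-scaled CPM of 6 genes in every library against hours in CaCl2, with cnb1 left of WT in each panel; points are libraries and black bars the mean ± SD of 3. KTR2 climbs to 71.4 to 89.4 CPM in WT at 72 h beside 34.7 to 37.8 CPM in cnb1, MNT4 lies lower in cnb1 after 0 h, PMT1 rises and MNN1 and MNN2 fall in both.

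MNT4 (YNR059W, chromosome XIV, 736803 to 738545), a putative mannosyltransferase of the MNN1 family, fell in cnb1 cells and had no call over time in WT cells. In cnb1 cells it had 43.4, 42.1 and 45.0 CPM at 0 h, 28.6, 30.3 and 29.6 CPM at 12 h, 30.2, 26.4 and 30.6 CPM at 48 h and 29.9, 29.8 and 30.5 CPM at 72 h. The WT levels of MNT4 were 55.8, 55.8 and 56.2 CPM at 0 h, 57.1, 43.7 and 67.3 CPM at 12 h, 51.3, 39.5 and 54.6 CPM at 48 h and 48.7, 60.8 and 77.3 CPM at 72 h. The strains did not overlap at any of the 4 times, and cnb1 was the lower one already at 0 h, with a log2 difference of -0.36 that was not called. The change at 72 h was -0.53 ± 0.15 in cnb1 cells (edgeR adjusted p = 0.00480) and 0.16 ± 0.15 in WT cells (not called); with total counts the cnb1 value was -0.24 (edgeR adjusted p = 0.159) and the WT value 0.45 (edgeR adjusted p = 0.0105). The cnb1 calls at 12 h and 48 h, -0.56 and -0.58, also ended with total counts (-0.36 and -0.34). The difference between these changes was -0.69 ± 0.21 (edgeR adjusted p = 0.133), -0.84 without WT replicate 1 of 72 h (edgeR adjusted p = 0.0479) and -0.84 without all 4 late replicate 1 libraries (edgeR adjusted p = 0.0313).

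MNN1 (YER001W, chromosome V, 153520 to 155808), the enzyme that caps N- and O-linked chains with a terminal mannose, had the deepest fall of all 42 genes at 72 h. In cnb1 cells it had 143.7, 163.3 and 138.9 CPM at 0 h, 102.1, 104.1 and 105.4 CPM at 12 h, 42, 67.3 and 57.5 CPM at 48 h and 30.8, 50.3 and 47.7 CPM at 72 h. The WT levels of MNN1 were 138.3, 152.9 and 136.2 CPM at 0 h, 52.4, 49.8 and 55.5 CPM at 12 h, 31.4, 43.6 and 38.3 CPM at 48 h and 26.0, 36.6 and 34.1 CPM at 72 h. By 12 h the WT libraries were already below every cnb1 library of that time, and the strains overlapped at 48 h and 72 h. The log2 changes were -0.52, -1.42 and -1.79 in cnb1 cells and -1.44, -1.92 and -2.14 in WT cells, all called, with 72 h values of -1.79 ± 0.18 (edgeR adjusted p = 2.24e-07) and -2.14 ± 0.18 (edgeR adjusted p = 1.37e-08). The 12 h fall in cnb1 cells lost its call with total counts (-0.32) and without replicate 2 of 0 h or replicate 1 or 2 of 12 h (-0.44 to -0.52). The difference between the 12 h changes was 0.92 ± 0.24, just short of a call (edgeR adjusted p = 0.0545), and DESeq2 gave 0.92 with an adjusted p of 0.0166. MNT2 and MNT3, of the same family and active on O-linked chains, went apart: at 72 h MNT3 fell by 0.67 ± 0.15 in cnb1 cells (edgeR adjusted p = 6.64e-04) and by 0.56 ± 0.15 in WT cells (edgeR adjusted p = 0.00238; -0.26 and not called with total counts). MNT2 had a change of 0.03 ± 0.09 in cnb1 cells, not called (0.32 and called with total counts), and rose by 0.30 ± 0.09 in WT cells (edgeR adjusted p = 0.00839; 0.23 without WT replicate 3 of 72 h, edgeR adjusted p = 0.0561).

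MNN2 (YBR015C, chromosome II, 267710 to 269503) adds the first branching mannose to the outer chain of N-glycans. At 72 h it had 144.3, 179.2 and 197.5 CPM in cnb1 cells, against 365.9, 322.3 and 362.3 CPM at 0 h. WT cells had 151.1, 203.4 and 166.7 CPM, against 381.6, 368.6 and 351.1 CPM at 0 h. All 6 libraries of 72 h were below all 6 of 0 h, with log2 changes of -1.01 ± 0.19 in cnb1 cells (edgeR adjusted p = 1.59e-04) and -1.08 ± 0.19 in WT cells (edgeR adjusted p = 5.88e-05). MNN5, which adds the next mannose to that branch, had changes of -0.07 ± 0.13 in both strains, not called, and 0.23 in WT cells with total counts, called. The TPM ratio of MNN2 to MNN5 was 2.62 ± 0.24 at 0 h, 1.74 ± 0.04 at 12 h, 1.47 ± 0.09 at 48 h and 1.36 ± 0.12 at 72 h for cnb1 cells, and 2.57 ± 0.08, 1.81 ± 0.20, 1.37 ± 0.21 and 1.28 ± 0.21 in WT cells (SD, n = 3). In both strains every later ratio was below every 0 h ratio, as the plot of the TPM ratios shows.

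MNN4 (YKL201C, chromosome XI, 63930 to 67466), a positive regulator of mannosylphosphate addition, was the lowest of the Golgi genes by TPM and rose at all 3 times in both strains. At 72 h it had 27.8, 24.5 and 27.1 CPM in cnb1 cells, against 16.6, 17.7 and 18.0 CPM at 0 h. WT cells had 31.0, 34.2 and 38.3 CPM, against 19.5, 17.7 and 16.9 CPM at 0 h. No 72 h library overlapped those of 0 h, and the WT libraries of 72 h lay above the cnb1 ones. On the log2 scale the change was 0.60 ± 0.10 in cnb1 cells (edgeR adjusted p = 4.90e-05) and 0.93 ± 0.10 in WT cells (edgeR adjusted p = 2.11e-07). The 12 h rise in cnb1 cells, 0.28, was not called by DESeq2 or when any library but replicate 2 of 12 h was left out (0.24 to 0.30). KTR6, the mannosylphosphate transferase itself, had a change of -0.68 ± 0.28 in cnb1 cells (edgeR adjusted p = 0.0400) and -0.44 ± 0.28 in WT cells (not called). Its cnb1 call ended without any 1 of the 0 h replicates (-0.64 to -0.71) or replicate 1 of 72 h (-0.44), and with total counts (-0.41).

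KTR3, an enzyme of O- and N-linked chains, fell at all 3 times in both strains (at 12 h in cnb1 cells -0.39, or -0.19 and not called with total counts), by 0.59 ± 0.10 at 72 h in cnb1 cells (edgeR adjusted p = 4.32e-05) and by 0.73 ± 0.10 in WT cells (edgeR adjusted p = 2.95e-06). KTR1, of the same role, fell by 0.60 ± 0.14 in cnb1 cells (edgeR adjusted p = 0.00118) and had a change of -0.28 ± 0.14 in WT cells, not called. KTR5, a putative mannosyltransferase, rose at 12 h, by 0.61 ± 0.13 in cnb1 cells (edgeR adjusted p = 9.07e-04) and 0.53 ± 0.13 in WT cells (edgeR adjusted p = 0.00197). At 72 h KTR5 had 37.6, 42.7 and 40.7 CPM in cnb1 cells, against 31.9, 32.6 and 30.1 CPM at 0 h, without overlap, and 28.2, 38.9 and 34.5 CPM in WT cells, against 33.2, 33.9 and 29.4 CPM at 0 h, with overlap. Its change was 0.35 in cnb1 cells, called with all libraries and not without replicate 3 of 0 h or replicate 2 of 72 h (0.31 to 0.32), and 0.07 in WT cells, not called (0.37 and called with total counts). Of the subunits of the mannan polymerases that build the outer chain, MNN9 and MNN10 had changes of -0.05 to 0.09 at 72 h in both strains, not called, and of 0.24 to 0.39 with total counts, all called. MNN11 fell by 0.40 ± 0.14 in cnb1 cells (edgeR adjusted p = 0.0199) and by 0.44 ± 0.14 in WT cells (edgeR adjusted p = 0.0105). Those MNN11 calls ended with total counts (-0.12 and -0.15) and without replicate 1 of 72 h of the strain (-0.29 and -0.32).

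In the ER, the largest falls among the ALG genes at 72 h were those of ALG7, ALG8 and ALG2 in both strains. ALG7 (YBR243C, chromosome II, 705447 to 706793) encodes the enzyme of the first step, the transfer of N-acetylglucosamine phosphate to dolichyl phosphate. At 72 h it had 31.0, 49.8 and 62.2 CPM in cnb1 cells, against 99.7, 91.3 and 107.2 CPM at 0 h, and in WT cells 38.4, 66.4 and 57.7 CPM, against 103.4, 111.0 and 106.3 CPM. Replicate 1 was the lowest 72 h library in both strains, and no 72 h library reached the 0 h range. The log2 change was -1.06 ± 0.24 in cnb1 cells (edgeR adjusted p = 0.00106) and -0.98 ± 0.24 in WT cells (edgeR adjusted p = 0.00166). At 48 h the values were -0.83 and -0.74, both called. The WT value there was -0.48 without replicate 1 of 48 h (edgeR adjusted p = 0.0705) and -0.46 with total counts (edgeR adjusted p = 0.0502).

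ALG14 and ALG13 make the transferase of the second N-acetylglucosamine, ALG14 as its membrane anchor and ALG13 as its catalytic part. ALG14 (YBR070C, chromosome II, 379221 to 379934) had 38.5, 39.1 and 38.8 CPM at 72 h in cnb1 cells, against 33.9, 34.2 and 33.4 CPM at 0 h, a change of 0.20 ± 0.09 that was not called (0.49 and called with total counts). In WT cells it had 48.9, 59.5 and 55.5 CPM, against 34.5, 35.0 and 39.2 CPM at 0 h, a rise of 0.59 ± 0.09 (edgeR adjusted p = 1.03e-05). All 3 WT libraries of 72 h were above all cnb1 libraries of that time. ALG13, the lowest ALG gene by TPM, rose by 0.68 ± 0.25 in cnb1 cells at 72 h (edgeR adjusted p = 0.0245) and had a change of 0.51 ± 0.25 in WT cells, not called (0.81 and called with total counts). Its cnb1 call ended without replicate 2 of 0 h (0.52) or replicate 1 of 72 h (0.48).

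The first mannose, added by Alg1, and the next ones, added by Alg2 and Alg11 on the cytosolic face of the ER, showed unequal changes. ALG1 had changes of 0.09 and -0.05 at 72 h in cnb1 and WT cells, not called, though the cnb1 value was 0.38 and called with total counts. ALG2 fell to 37.7, 38.9 and 39.7 CPM in cnb1 cells at 72 h, against 57.8, 60.3 and 54.0 CPM at 0 h, and to 38.9, 39.1 and 34.4 CPM in WT cells, against 58.3, 65.9 and 65.5 CPM at 0 h. Its libraries of 72 h and 0 h stood apart in both strains, with log2 changes of -0.57 ± 0.09 in cnb1 cells (edgeR adjusted p = 2.37e-05) and -0.76 ± 0.09 in WT cells (edgeR adjusted p = 5.73e-07). ALG11 fell by 0.34 ± 0.09 in cnb1 cells (edgeR adjusted p = 0.00248) and by 0.33 ± 0.09 in WT cells (edgeR adjusted p = 0.00260), which with total counts were -0.05 and -0.03 and not called. On the lumenal face, ALG9 fell by 0.38 and 0.34 at 72 h, ALG12 fell by 0.32 in cnb1 cells with a change of -0.15 in WT cells, and ALG3 had changes of -0.20 and -0.14, not called. The calls of ALG9 and ALG12 ended without the 4 late replicate 1 libraries (-0.30 and -0.22 for ALG9, -0.25 for ALG12 in cnb1 cells), with total counts (-0.10 to -0.03), and without any 1 of replicates 1 and 3 of 0 h or 1 and 2 of 72 h in cnb1 cells (-0.24 to -0.35), or any replicate of 0 h or replicate 1 of 72 h in WT cells (-0.22 to -0.33).

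Of the glucose steps, ALG6 and ALG8 fell and ALG5, which makes the glucose donor dolichyl phosphate glucose, did not. ALG8 had 80.6, 110.3 and 127.3 CPM at 72 h in cnb1 cells, against 181.5, 167.9 and 194.8 CPM at 0 h, and 100.5, 136.2 and 138.8 CPM in WT cells, against 192.1, 204.0 and 197.0 CPM at 0 h, with no overlap in either strain. It fell by 0.77 ± 0.18 in cnb1 cells at 72 h (edgeR adjusted p = 0.00133) and by 0.66 ± 0.18 in WT cells (edgeR adjusted p = 0.00389). ALG6 fell by 0.49 ± 0.16 in both, and those calls ended without replicate 1 of 72 h (-0.36 in cnb1 cells, -0.35 in WT cells) and with total counts (-0.22 and -0.19). ALG5 had a change of 0.36 ± 0.15 in both strains, called in WT cells (edgeR adjusted p = 0.0442) and not in cnb1 cells (edgeR adjusted p = 0.0502; 0.49 and called without replicate 1 of 72 h). The WT call of ALG5 ended without replicate 1 or 2 of 0 h or replicate 2 or 3 of 72 h (0.29 to 0.38). It also ended with size factors by the median of ratios (0.32, edgeR adjusted p = 0.0826) and by DESeq2 (0.32, adjusted p = 0.0802). In cnb1 cells it was called with total counts (0.64), with no filter on low counts (0.37) and without the 4 late replicate 1 libraries (0.48).

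Among the oligosaccharyltransferase subunits, OST1 and OST3 fell in both strains and OST6 did not change detectably. OST3 and OST6 encode alternative thioredoxin-like subunits, so that a complex holds one or the other. OST3 (YOR085W) had 141.7, 162.0 and 191.0 CPM at 72 h in cnb1 cells, against 237.0, 218.5 and 230.8 CPM at 0 h, and 124.3, 172.2 and 156.1 CPM in WT cells, against 268.2, 276.2 and 264.9 CPM at 0 h. No 72 h library reached the 0 h range of its strain. The log2 change was -0.47 ± 0.15 in cnb1 cells (edgeR adjusted p = 0.00922) and -0.84 ± 0.15 in WT cells (edgeR adjusted p = 5.97e-05), and the cnb1 value was -0.37 without replicate 1 of 72 h (edgeR adjusted p = 0.0571) and -0.19 with total counts (edgeR adjusted p = 0.103). OST6 had changes of 0.05 ± 0.11 and 0.06 ± 0.11 at 72 h, not called, and was called higher with total counts (0.33 and 0.35). The TPM ratio of OST3 to OST6 was 1.94 ± 0.10 at 0 h, 1.60 ± 0.11 at 12 h, 1.37 ± 0.05 at 48 h and 1.35 ± 0.05 at 72 h for cnb1 cells (SD, n = 3). In WT cells it was 2.14 ± 0.08, 1.48 ± 0.10, 1.25 ± 0.09 and 1.15 ± 0.16 at the same times. A ratio within a library shows unequal change of the pair and does not depend on the scaling.

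**Figure D4:**
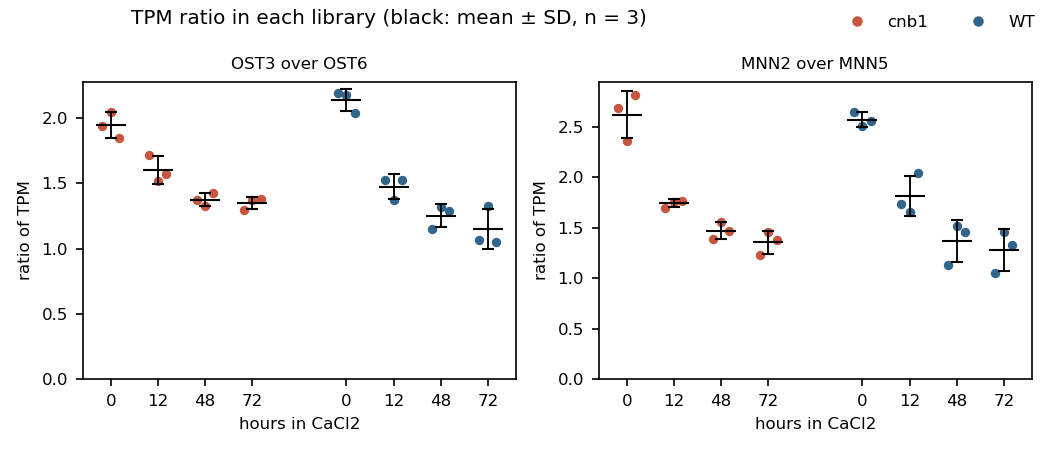
Ratio of the deposited TPM of OST3 over OST6 (left) and of MNN2 over MNN5 (right) in every library against hours in CaCl2, with cnb1 left of WT; points are libraries and black bars the mean ± SD of 3. Both ratios are lower after 0 h, at 1.35 ± 0.05 in cnb1 and 1.15 ± 0.16 in WT for OST3 over OST6 at 72 h.

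OST1, a subunit with a large lumenal part, had 229.3, 343.3 and 393.7 CPM at 72 h in cnb1 cells, against 600.0, 526.3 and 591.9 CPM at 0 h. WT cells had 268.9, 433.5 and 364.5 CPM, against 620.8, 615.1 and 594.5 CPM at 0 h. The groups did not overlap, and replicate 1 was the lowest at 72 h in both strains. On the log2 scale the change was -0.83 ± 0.21 in cnb1 cells (edgeR adjusted p = 0.00220) and -0.78 ± 0.21 in WT cells (edgeR adjusted p = 0.00304). OST4, a very small membrane subunit, fell at all 3 times in WT cells, by 0.47 ± 0.13 at 72 h (edgeR adjusted p = 0.00454; -0.18 and not called with total counts), and had a change of -0.04 ± 0.13 in cnb1 cells, not called. Its WT call at 12 h, -0.38, ended without replicate 2 or 3 of 0 h or replicate 1 or 2 of 12 h (-0.28 to -0.34). The WT calls of OST4 at 12 h and 48 h also ended with total counts (-0.22 and -0.24). The strain difference in the change from 0 h at 72 h was 0.44 ± 0.19 (edgeR adjusted p = 0.342). OST2, with changes of -0.07 and -0.05, and OST5, with changes of -0.24 and -0.30, were not called at 72 h in cnb1 and WT cells. With total counts OST2 was at 0.21 and 0.25 and called. OST5 was called lower in WT cells at 72 h by DESeq2 (-0.34, adjusted p = 0.0317), with size factors by the median of ratios (-0.34, edgeR adjusted p = 0.0366) and without replicate 2 of 72 h (-0.36). At 48 h OST5 was called lower in WT cells (-0.34, edgeR adjusted p = 0.0288). This call ended with total counts (-0.04), without the 4 late replicate 1 libraries (-0.19) and without replicate 1 or 3 of 0 h or of 48 h (-0.21 to -0.34).

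Before CaCl2 no strain difference was detected in any single gene of the 42. None was called at 0 h by edgeR's test, where 0.032% of all genes were called, 1 (MNT4) had an unadjusted p under 0.05, and DESeq2 also called none. The median log2 difference of the 42 genes, cnb1 less WT, was already -0.10 at 0 h, beside -0.01 over all genes. At 72 h it was -0.14, beside -0.02 over all genes. At 12 h, 1 gene was higher (8.43% of all genes were) and 8 were lower (6.96%) in cnb1 cells than in WT cells, where 15.4% of all genes were called either way. The higher one was MNN1, at 0.98 ± 0.17 (edgeR adjusted p = 7.16e-04). The lower ones were KTR2, KTR7, MNN4, MNT2, MNT4, PMT3, PMT5 and ALG11. Among them PMT5 was at -0.43 ± 0.08 (edgeR adjusted p = 0.00101), MNN4 at -0.54 ± 0.10 (edgeR adjusted p = 9.08e-04) and KTR7, a putative mannosyltransferase, at -0.39 ± 0.10 (edgeR adjusted p = 0.00802). PMT3 was at -0.64 ± 0.19 (edgeR adjusted p = 0.0274), and its call ended without replicate 1 or 2 of cnb1 or replicate 1 or 3 of WT (-0.54 to -0.68) and with total counts (-0.53). The calls of MNT2 (-0.28 to -0.34) and ALG11 (-0.19 to -0.28) ended in 5 of the 6 fits that left out 1 library. That of ALG11 also ended with total counts (-0.14) and with no filter on low counts (-0.26). The count of 8 became 5 without replicate 1 or 2 of cnb1 or replicate 3 of WT at 12 h.

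At 48 h, 3 genes were lower in cnb1 cells and none higher (2.19% of all genes were lower and 2.70% higher, 4.89% either way). At 72 h, 5 were lower and none higher (4.45% and 4.67%, 9.12% either way), beside 10 lower and 1 higher at an unadjusted p under 0.05 and 6 lower and 0 higher by DESeq2. At both times ALG14, KTR2 and MNT4 were called, and they remained called in every alternative. At 72 h KTR2 was at -1.16 ± 0.11 (edgeR adjusted p = 1.03e-06), MNT4 at -1.05 ± 0.15 (edgeR adjusted p = 1.38e-04) and ALG14 at -0.49 ± 0.09 (edgeR adjusted p = 0.00111), each without overlap between the strains. MNN4, at -0.38 ± 0.10 (edgeR adjusted p = 0.0163), and MNT2, at -0.36 ± 0.09 (edgeR adjusted p = 0.0202), were the other genes at 72 h. Their calls ended without replicate 2 of cnb1 (-0.33 for MNN4, -0.34 for MNT2) or replicate 3 of WT at 72 h (-0.30 and -0.28), and that of MNT2 also without replicate 1 of cnb1 (-0.30). The MNN4 call also ended with total counts (-0.31, edgeR adjusted p = 0.105). MNT2 had 103.6, 110.2 and 127.3 CPM in cnb1 cells at 72 h, against 133.1, 143.7 and 160.5 CPM in WT cells, with no overlap. Same-numbered libraries of the strains deviated together at 48 h and 72 h, which does not show that they are pairs. With replicate numbers as a block, MNN1 was also called higher in cnb1 cells at these times, at 0.55 (edgeR adjusted p = 4.02e-04) and 0.40 (edgeR adjusted p = 0.00218). With the block PMT3 was called lower, at -0.51 (edgeR adjusted p = 0.00191) and -0.41 (edgeR adjusted p = 0.00522), MNT2 lower at 48 h (-0.27, edgeR adjusted p = 0.0319), and KTR1 and KTR7 lower at 72 h (-0.46 and -0.28). The blocked counts were 1 higher and 5 lower at 48 h and 1 higher and 8 lower at 72 h. At 48 h the count of 3 became 7 without replicate 1 of WT and 5 without replicate 2 of WT. At 72 h the count of 5 became 3 without replicate 2 of cnb1 or replicate 3 of WT, and 1 gene was higher without replicate 1 of cnb1 at either time or replicate 2 of WT at 48 h.

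The direct test of the strain difference in the change from 0 h called few of these genes. KTR2 was the only one called lower in cnb1 cells at 12 h, at -0.60 ± 0.15 (edgeR adjusted p = 0.0491; 0.848% of all genes were lower and 0.976% higher, 1.82% either way), and that call ended with total counts (-0.57), with no filter on low counts (-0.60) and in 10 of the 12 fits that left out 1 library (-0.48 to -0.68). At 48 h edgeR's test called none (0.112% of all genes were higher and 0.080% lower, 0.192% either way), where 1 gene was higher and 3 lower at an unadjusted p under 0.05, and DESeq2 called KTR2, lower. At 72 h KTR2 alone was called, at -1.16 ± 0.15 (0.624% of all genes were lower and 0.416% higher, 1.04% either way), and 2 genes were called without WT replicate 1 of 72 h. Of the genes called over time, 4 rose and 14 fell in both strains at 72 h, which is 4 of the 6 higher and 14 of the 18 lower genes of cnb1 cells and 4 of the 9 higher and 14 of the 15 lower genes of WT cells. These are 9.52% and 33.3% of the 42 genes, against 27.1% and 24.1% of all genes called higher and lower in both strains at 72 h. None of the 42 was called in opposite directions at any time, against 0.176%, 0.064% and 0.112% of all genes at 12, 48 and 72 h.

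**Figure D5:**
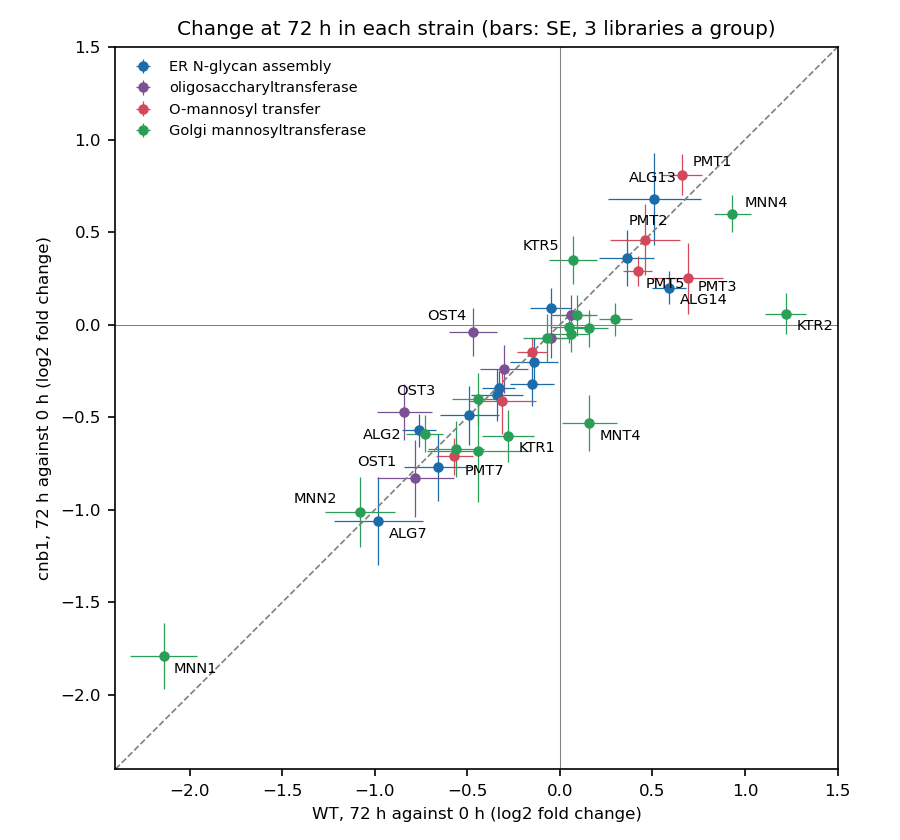
Log2 fold change at 72 h against 0 h in cnb1 cells (vertical) and in WT cells (horizontal) for the 42 genes, with SE bars, coloured by class; the dashed line marks equal change. Most genes lie near the line, KTR2 lies far below it (0.06 in cnb1, 1.22 in WT) and MNT4 also lies below (-0.53 and 0.16).

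Other genes of the pathway, from lists that do not use these names, gave the setting of the changes. Their changes are given with TMM scaling alone. With total counts the median change of all genes at 72 h was 0.34 in cnb1 cells and 0.38 in WT cells, against 0.05 and 0.08 with TMM. Of 12 genes of mannose and N-acetylglucosamine donor synthesis, 1 rose and 8 fell in cnb1 cells at 72 h (median -0.63), where 31.6% of all genes rose and 28% fell. In WT cells 1 rose and 6 fell (median -0.55), where 34.7% of all genes rose and 29.8% fell. PMI40, the isomerase that makes mannose phosphate from fructose phosphate, averaged 64.3 ± 12.8 CPM in cnb1 cells at 72 h, against 309.0 ± 7.62 CPM at 0 h, and 69.3 ± 13.7 CPM in WT cells, against 342.0 ± 6.06 CPM at 0 h (SD, n = 3). Its log2 changes were -2.27 ± 0.22 (edgeR adjusted p = 1.95e-07) and -2.30 ± 0.22 (edgeR adjusted p = 5.59e-08). DPM1, which makes the mannose donor of the Pmt enzymes, fell by 0.89 and 1.08, and GFA1, the first enzyme towards N-acetylglucosamine, fell by 0.88 and 1.15 in cnb1 and WT cells. GNA1, the acetyltransferase of that route, was the one that rose, by 1.18 and 1.38.

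Of 8 other genes of the dolichol-linked chain, 3 rose and 4 fell in cnb1 cells at 72 h (31.6% and 28% of all genes did). In WT cells 2 rose and 4 fell (34.7% and 29.8% of all genes did). DIE2, which adds the last glucose, had log2 changes of -1.52 ± 0.29 (edgeR adjusted p = 1.66e-04) and -1.78 ± 0.29 (edgeR adjusted p = 2.51e-05), and SEC59, the dolichol kinase, fell by 0.89 and 1.14. RER2, which makes the dolichol chain, rose by 0.61 and 0.88. Of the other oligosaccharyltransferase subunits, STT3, the catalytic one, rose by 0.67 and 0.56, while SWP1 fell by 0.93 and 1.05 and WBP1 by 0.65 and 0.67.

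Of 7 Golgi mannosyltransferase genes outside the name rule, 1 rose and 5 fell in cnb1 cells at 72 h (median -0.38), where 31.6% of all genes rose and 28% fell. In WT cells 2 rose and 3 fell (median -0.01), where 34.7% of all genes rose and 29.8% fell. OCH1, which starts the outer chain of N-glycans, averaged 32.9 ± 2.06 CPM in cnb1 cells at 72 h and 56.7 ± 6.02 CPM in WT cells (SD, n = 3), a log2 difference of -0.78 ± 0.15 (edgeR adjusted p = 0.00249). Its fall from 0 h was 1.09 in cnb1 cells and 0.53 in WT cells, and the difference between these falls was not called (-0.57 ± 0.21, edgeR adjusted p = 0.253). ANP1, a mannan polymerase subunit, rose by 1.10 at 12 h and 0.90 at 72 h in cnb1 cells, and by 1.31 and 0.98 in WT cells. VAN1, the partner of MNN9 in the other mannan polymerase, was lower in cnb1 than in WT cells at 12, 48 and 72 h, with log2 differences of -0.39, -0.44 and -0.50. For the strain difference in the change from 0 h, none of these 7 Golgi genes was called at any time. Their median log2 difference between the strains was -0.13 at 0 h, where none was called. Of 7 genes of glycan trimming and lectin quality control in the ER, 5 rose and 1 fell at 72 h in both strains, beside the same shares of all genes. Their medians were 0.32 in cnb1 cells and 0.39 in WT cells. Among them YOS9, a lectin that reads trimmed chains on misfolded proteins, rose by 0.72 and 0.95, and ROT2, a glucosidase subunit, fell by 0.47 and 0.56.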

How the data were processed

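RNA was extracted with acid phenol, enriched for polyadenylated RNA and sequenced, per the labels' protocols. The authors counted reads per gene; the deposited counts are raw whole numbers, and featureCounts, DESeq2 and R64 appear, without versions, in the submitters' processing notes. Not given in the sources used here: aligner, annotation release, strand setting. The authors also deposited TPM values, which were used only for levels between genes, for ratios within a library and for class medians as an alternative.

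Genes with low counts were removed with edgeR's filter by group, which left 6253 of 7126. Libraries were scaled by the trimmed mean of M-values (TMM), and edgeR 4.0.16 (R 4.3.3) fitted 8 group means to all 24 libraries with 16 residual degrees of freedom. Quasi-likelihood tests gave 13 comparisons, two-sided, with p-values adjusted within each. SE is the log2 change divided by the square root of F. Depth was 18843220 to 22250806 counts a library. On simulated data for WT at 72 h, the test found 91.8% of genes changed 2-fold and 29.9% of those changed 1.5-fold, among 6089 genes, with 9 false calls. The simulation changed a far smaller share of genes than the 64.5% called in the real comparison. Its recovery shares need not hold there.

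Any gene matching the name rule may be named; values by library are given for up to 6 higher and 6 lower calls a comparison that did not overlap and reached 20 CPM, and for a few genes beside them chosen after their values were seen. The members, classes and lists were chosen with earlier results of these data known. The main tests used no pairing, and replicate numbers entered only as a block in an alternative fit. A rule for possible pairs asked that every same-numbered pair of libraries in a comparison deviate together (r over 0.1). The rule was met between cnb1 and WT libraries of 0 h (r from 0.193 to 0.229), of 48 h (r from 0.162 to 0.569) and of 72 h (r from 0.314 to 0.689), and between the 12 h and 0 h libraries of WT (r from 0.228 to 0.396). Deviations within a group cancel out, so replicate 1 standing apart in both groups also makes the other numbers deviate together. The rule therefore cannot show that every number is a pair. Alternatives were DESeq2 1.42.0, median-of-ratios and total count scaling, no low-count filter (6917 genes), the replicate block, leaving out single libraries, and leaving out the 4 late replicate 1 libraries. No member overlaps another gene of the RefSeq annotation, and none has a repeated stretch of 50 bases. Overlap with genes outside that annotation was not checked, and the annotation used for counting is not given. Promoter sequences are given for 3 members; others are not reported here.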

Additional observations from a re-analysis of the deposited data

Results flagged for a closer look

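KTR2 changed differently in the strains. The test of the difference between its changes from 0 h, cnb1 less WT, gave a log2 value of -0.60 at 12 h (edgeR adjusted p = 0.0491) and of -1.16 at 72 h (edgeR adjusted p = 6.63e-04). The mean levels at 72 h were 36.2 ± 1.55 CPM in cnb1 cells and 80.8 ± 9.01 CPM in WT cells (SD, n = 3), and KTR2 was lower in 3 of 3 cnb1 libraries than in any WT library. The 12 h call was lost in most alternatives, as given above, and the 72 h call was kept in all of them.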

How the results depend on the processing

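Total count scaling moved many of these counts. Genes called higher became 9, 14 and 17 in cnb1 cells and 15, 19 and 19 in WT cells at 12, 48 and 72 h, and genes called lower became 1 in cnb1 cells at 12 h, 10 at 72 h, and 8 and 9 in WT cells at 48 h and 72 h. Of all called genes the share higher moved to 77.6%, 73% and 73.8% in cnb1 cells, from 52.3%, 52.2% and 53% with TMM, and to 70.1%, 73.8% and 71.9% in WT cells, from 52.3%, 53% and 53.8%; it moved to 72.6% from 54.8% for cnb1 against WT at 12 h, and to 40% from 58.3% and 29.7% from 40% for the difference in change at 48 h and 72 h. On that scale cnb1 against WT at 48 h gave 1 gene higher, and the difference in change at 12 h gave 1 higher and 0 lower. Direction turned for ALG1 (0.32), ALG3 (0.22), PMT6 (0.12) and OST6 (0.29) in WT cells at 48 h, MNN5 (0.23) and OST2 (0.25) in WT cells at 72 h, and in cnb1 cells for MNT2 at 12 h (0.19), KTR7 at 48 h (0.23) and 72 h (0.27), and MNN9 (0.24) and OST2 (0.21) at 72 h. Median-of-ratios factors moved no count by over 1.5 times. Class medians on log2(TPM + 1) moved by more than the replicate SD in 27 of 32 cases.

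Without the 4 late replicate 1 libraries, 12 genes were lower in WT cells at 12 h; cnb1 against WT gave 14 lower at 12 h, 1 higher and 6 lower at 48 h and 1 higher at 72 h; the difference in change gave 1 higher and 3 lower at 12 h and 3 lower at 72 h. The replicate block gave 1 higher and 5 lower for cnb1 against WT at 48 h, and 1 higher and 8 lower at 72 h. In the difference of changes, where pairing was not shown, the block gave 1 higher and 2 lower at 12 h (MNN1 0.92, PMT3 -0.67), 1 higher and 2 lower at 48 h (MNN1 0.49, PMT3 -0.54, KTR2 -0.66) and 2 lower at 72 h. DESeq2 gave 1 higher and 5 lower for cnb1 against WT at 48 h, 1 higher and 2 lower for the difference at 12 h, and 1 lower at 48 h. With no low-count filter the difference at 12 h had 0 lower. The 12 h comparisons hold none of the 4 late replicate 1 libraries but share their estimate of spread with all groups. In WT cells at 12 h, ALG7 was at -0.55 with these libraries (edgeR adjusted p = 0.0678) and without them (edgeR adjusted p = 5.36e-04). OST1 was at -0.33 with them (edgeR adjusted p = 0.194) and without them (edgeR adjusted p = 0.0126). The cause of the shifts was not tested.

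With single libraries left out, counts higher and lower ranged over 2 to 5 and 4 to 7 (cnb1, 12 h), 4 to 7 and 12 to 18 (48 h), 4 to 6 and 12 to 19 (72 h), and over 8 to 9 and 3 to 8 (WT, 12 h), 7 to 12 and 11 to 17 (48 h), 6 to 9 and 12 to 16 (72 h). For cnb1 against WT they were 0 and 0 at 0 h, 1 and 5 to 7 at 12 h, 0 to 1 and 3 to 7 at 48 h, and 0 to 1 and 3 to 6 at 72 h. For the difference in change they were 0 and 0 to 1 at 12 h, 0 and 0 at 48 h, and 0 and 1 to 2 at 72 h.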

Other observations

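Chaperone genes of the ER lumen and genes of the unfolded protein response also moved in both directions. Of 16 such genes, 4 rose and 6 fell in cnb1 cells at 72 h (median log2 change -0.17), where 31.6% of all genes rose and 28% fell. In WT cells 4 rose and 5 fell (median -0.10), where 34.7% of all genes rose and 29.8% fell. SCJ1, a co-chaperone of the ER lumen, rose by 0.74 ± 0.08 in cnb1 cells (edgeR adjusted p = 8.11e-07) and by 1.06 ± 0.08 in WT cells (edgeR adjusted p = 6.65e-09). KAR2, the main Hsp70 chaperone of the ER, fell by 0.34 ± 0.14 in cnb1 cells (edgeR adjusted p = 0.0390) and by 0.47 ± 0.14 in WT cells (edgeR adjusted p = 0.00587). These changes are given with TMM scaling alone. With total counts the median change of all genes at 72 h was 0.34 in cnb1 cells and 0.38 in WT cells, against 0.05 and 0.08 with TMM. HAC1, the transcription factor of the response, averaged 258 ± 31.3 CPM in cnb1 cells at 72 h and 452 ± 103 CPM in WT cells (SD, n = 3), a log2 difference of -0.81 ± 0.15 (edgeR adjusted p = 0.00183). The strain difference in its change from 0 h was -0.71 ± 0.22 and not called (edgeR adjusted p = 0.134). The counts do not show whether the HAC1 RNA was spliced.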
